A study of Mus musculus with 4 samples.

Results

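The Ikaros zinc finger family consists of 5 genes, Ikzf1 to Ikzf5, which encode the transcription factors Ikaros, Helios, Aiolos, Eos and Pegasus. The members were chosen by symbol and matched to the gene identifiers of the count files, where all 5 of the 50600 listed genes that bear these names were found. RNA was measured in 4 RNA-seq libraries of primary mouse T-helper 17 (Th17) cells, CD4 T cells that make interleukin-17. The cells were of strain C57BL/6NJ, with age unknown and sex not collected per the labels, which link a CD4 T-cell differentiation protocol without naming an agent or a time. The libraries are biological replicates 1 to 4 of 1 group, and there was no second condition. Levels are therefore compared between genes within a library, and between the 4 replicates.

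Ikaros proteins bind DNA through a cluster of zinc fingers near the amino terminus, with a preference for sites that hold the core GGGAA. A pair of fingers at the carboxy terminus joins family members to each other, so that Ikaros, Aiolos, Helios and Eos form dimers in many combinations. Ikaros brings the nucleosome remodelling and deacetylase (NuRD) complex to its sites in lymphocytes. Aiolos is abundant in B cells and is also known from Th17 cells, where it silences the interleukin-2 gene. Helios and Eos are best known from regulatory T cells, where Eos works with Foxp3, and Pegasus is the most divergent member.

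The coding sequence of the second zinc finger is shown because 4 of the 5 members encode the same finger there. It was read from the principal transcript of each gene in the GENCODE M21 transcripts (mm10), 5′ to 3′ on the coding strand, and the capitals mark the codons of the cysteines and histidines that hold the zinc ion.
Ikzf1, chr11:11754024-11754086, plus strand: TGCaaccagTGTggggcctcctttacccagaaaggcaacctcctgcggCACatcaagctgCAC
Ikzf2, chr1:69570581-69570643, minus strand: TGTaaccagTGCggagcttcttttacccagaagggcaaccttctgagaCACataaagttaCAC
Ikzf3, chr11:98488940-98489002, minus strand: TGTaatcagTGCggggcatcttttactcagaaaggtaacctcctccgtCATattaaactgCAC
Ikzf4, chr10:128640229-128640291, minus strand: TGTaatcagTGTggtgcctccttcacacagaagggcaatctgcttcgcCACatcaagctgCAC
Ikzf5, chr7:131392501-131392563, minus strand: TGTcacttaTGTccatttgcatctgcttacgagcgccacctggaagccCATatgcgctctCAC
In Ikzf1, Ikzf2, Ikzf3 and Ikzf4 this finger lies in exon 5 of 8 and translates to the same 21 amino acids, although only 76.2% to 84.1% of the 63 bases were the same in each pair. The Ikzf5 finger of the same number lies in exon 4 of 4 and shared 5 of 21 amino acids with each of them, of which 4 are the cysteines and histidines that the search pattern requires. Ikzf5 has fewer fingers in this cluster, so a finger with the same number need not be the corresponding one. Between any cluster finger of Ikzf5 and any of the others, both of 21 amino acids, 5 to 9 were shared. This stretch is the finger through which thalidomide-like drugs are known to bind human Ikaros and Aiolos to the ubiquitin ligase subunit cereblon.

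The last finger is shown because it belongs to the carboxy-terminal pair that joins family members to each other.
Ikzf1, chr11:11769495-11769563, plus strand: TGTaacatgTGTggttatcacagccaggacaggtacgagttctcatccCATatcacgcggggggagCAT
Ikzf3, chr11:98467004-98467072, minus strand: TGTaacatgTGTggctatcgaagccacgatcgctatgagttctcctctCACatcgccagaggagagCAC
Ikzf5, chr7:131391649-131391717, minus strand: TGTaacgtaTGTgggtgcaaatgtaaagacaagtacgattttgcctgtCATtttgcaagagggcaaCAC
Over these 23 codons, Ikzf1 and Ikzf3 shared 20 amino acids, and Ikzf5 shared 11 with Ikzf1 and 12 with Ikzf3. The finger pattern was found 6 times in Ikzf1 to Ikzf4, 4 of them in the amino-terminal cluster, and 5 times in Ikzf5, with 3 in that cluster. Over the whole proteins, identity in the aligned positions was 50.5% to 57.0% among Ikzf1 to Ikzf4 and 28.05% to 31.99% between Ikzf5 and the others. The longest run of bases that any pair of principal transcripts shared was 32, between Ikzf2 and Ikzf4.

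The libraries held 24696730 to 37025016 counted fragments. Replicates 1 and 2 stood apart from 3 and 4 on the sex chromosomes, with the X-inactivation RNA Xist at 161 to 186 against 0.687 to 0.721 TPM and the Y-linked gene Ddx3y at 0.442 to 0.446 against 83.2 to 88.6 TPM. TPM divides fragments by exon length and sets each library to the same total. Biosamples differ between the libraries in the labels, but the donor identifier is the same in all 4, and separate animals are not stated. By Xist and Ddx3y, replicates 1 and 2 were female and replicates 3 and 4 male, so the 4 libraries did not all come from 1 animal. Whether replicates of the same sex share an animal is not known. Spread between libraries, and every p below, may thus be partly technical, and it also includes any difference between the sexes. The cell type label was checked against markers, and all 6 CD4 T-cell genes and all 5 Th17 genes examined reached 1 TPM in every library, with summed levels of 2486 to 2705 and of 888 to 1057 TPM. Of the Th17 genes, Il17f stood at 694 ± 73.6 TPM and made up most of their sum. Il17a stood at 20.02 ± 1.02, the chemokine receptor gene Ccr6 at 14.3 ± 1.97 and the receptor gene Il23r at 2.14 ± 0.154 TPM. None of 6 B-cell markers reached 1 TPM, the highest being Cd79a at 0.343 ± 0.107, Ms4a1 and Pax5 had no fragment, and their summed level was 0.291 to 0.931 TPM. Of 5 markers of CD8 T or natural killer cells and 6 of myeloid cells, 1 each reached 1 TPM in every library, Cd8b1 at 7.32 ± 1.16 and Cd68 at 5.24 ± 1.02 TPM (± is the SD over n = 4 throughout). Their summed levels were 6.58 to 9.06 and 3.98 to 6.31 TPM.

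All 5 members were expressed, at levels far apart. Ikzf1 was by far the most abundant, followed by Ikzf3, then by Ikzf4 and Ikzf5 side by side, and Ikzf2 was lowest. Each reached 1 TPM in every library, as did 70.9% of protein-coding genes and 54.0% of all genes with a fragment in some library. In bulk RNA, fewer cells that express a gene and less RNA per cell cannot be told apart, so a low level may come from few cells or from all.

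Ikzf1 (ENSMUSG00000018654.17, chromosome 11, 11685003 to 11772926 in mm10, plus strand) encodes Ikaros. It stood at 261, 257, 266 and 258 TPM in replicates 1 to 4, from 10894 to 16408 fragments a library. The libraries lay close together, the highest 3.19% above the lowest, and the mean was 260.3 ± 3.80 TPM. Among the 9761 protein-coding genes at 1 TPM or more in every library it ranked 651.

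Ikzf3 (ENSMUSG00000018168.8, chromosome 11, 98464902 to 98546031, minus strand) encodes Aiolos and was the next in level. It stood at 65.5, 66.2, 62.1 and 60.0 TPM in replicates 1 to 4, a mean of 63.4 ± 2.93 TPM, above 69.5% of the detected protein-coding genes. Replicates 1 and 2 were the higher libraries and replicate 4 the lowest. Replicates 1 and 2 are also the libraries with high Xist, and the part of that difference in the result was not tested. The B-cell markers were near 0 in all 4 libraries, as given above.

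Ikzf4 (ENSMUSG00000002578.16, chromosome 10, 128632415 to 128645993, minus strand), the Eos gene, stood at 18.6, 18.9, 19.0 and 17.0 TPM in replicates 1 to 4, a mean of 18.4 ± 0.948 TPM. Ikzf5 (ENSMUSG00000040167.16, chromosome 7, 131388652 to 131410521, minus strand), the Pegasus gene, stood at 17.2, 17.9, 18.5 and 15.8 TPM, a mean of 17.4 ± 1.19 TPM. The ranges of these genes overlapped, and replicate 4 was the lowest library for both. They lay above 36.3% and 35.0% of the detected protein-coding genes.

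Ikzf2 (ENSMUSG00000025997.13, chromosome 1, 69531214 to 69687245, minus strand), the Helios gene, stood at 2.49, 2.44, 1.84 and 2.38 TPM in replicates 1 to 4, a mean of 2.29 ± 0.301 TPM. These levels rested on 207 to 315 fragments a library, far above the 3 fragments taken as the floor, which correspond to 0.0352 TPM in the shallowest library. Replicate 3 was the low library, and replicates 1, 2 and 4 lay close together. Ikzf2 was above 4.98% of the detected protein-coding genes. The TPM ratio of Ikzf1 to Ikzf2 was 115.5 ± 19.1, at 144.0 in replicate 3 and 104.7 to 108.1 in replicates 1, 2 and 4. This ratio also depended on the length by which counts were divided (below). Ikzf1 and Ikzf2 stood at 445 and 7.86 in CPM, which has no length term. They stood at 553 and 8.79 TPM with the median length of coding transcripts, and at 198 and 1.95 TPM with the principal transcript.

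**Figure D1:**
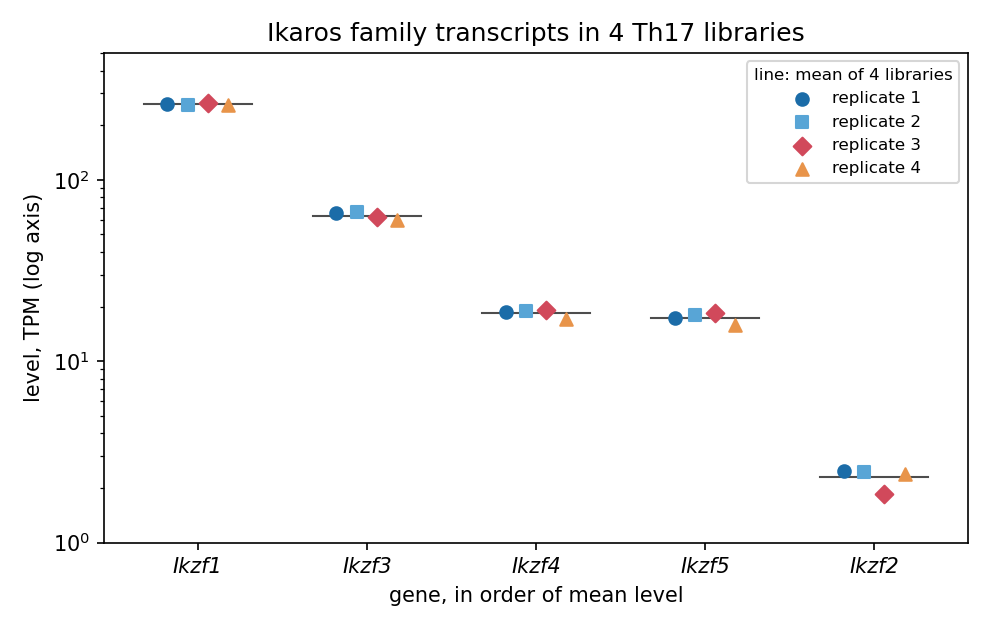
Level of each family member in TPM (log axis) in each of the 4 Th17 libraries, with a line at the mean. Ikzf1 sits between 257 and 266 TPM and Ikzf2 between 1.84 and 2.49 TPM, and the points of Ikzf4 and Ikzf5 overlap.

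Neighbours in this order were compared within each library on the scale of log2(TPM + 1), which understates differences for low genes. Ikzf1 exceeded Ikzf3 by 2.02 ± 0.07, with a TPM ratio of 3.89 to 4.30 in the 4 libraries. Ikzf3 exceeded Ikzf4 by 1.73 ± 0.05, and Ikzf5 exceeded Ikzf2 by 2.48 ± 0.21. In these 3 comparisons the ranges of the genes were separate. Ikzf4 exceeded Ikzf5 by only 0.08 ± 0.03, with a TPM ratio of 1.03 to 1.08, and the order of this pair turned under other lengths (below). All 4 differences had their direction in 4 of 4 libraries, and each gave the same exact two-sided sign-flip p of 0.13, unchanged by Benjamini-Hochberg adjustment over the 4. No smaller p can arise from 4 libraries, and none could pass 0.05. The pairs were set by the means of these same libraries, so the shared direction is a description and not separate support. The length of a gene is also the same in every library, so agreement between libraries does not settle an order that turned with the length.

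Seen as a whole, the family summed to 353 to 367 TPM in the 4 libraries. Ikzf1 made up 72.0% ± 0.929 of this sum and Ikzf3 17.5% ± 0.672. Together they left 5.08% ± 0.182 to Ikzf4, 4.80% ± 0.256 to Ikzf5 and 0.634% ± 0.0877 to Ikzf2. The share of Ikzf1 was 70.9% in its lowest library and 73.04% in its highest, while that of Ikzf2 was 0.502% in replicate 3 and 0.674% to 0.683% in the others.

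The gap between Ikzf1 and Ikzf3 depended on the length by which counts were divided. For Ikzf3 the files count fragments over 8754 bases, of which 5096 lie outside its principal coding transcript of 3658 bases, while for Ikzf1 only 614 of 5777 bases do. With the counted bases of the principal transcript as length, Ikzf3 was at 103 ± 4.76 and Ikzf1 at 198 ± 2.89 TPM, and the share of Ikzf3 in the family was 31.2%. That scale assumes that no fragment came from the exons outside the principal transcript, which gene counts cannot show. On it Ikzf5, at 15.2 ± 1.05 TPM, lay above Ikzf4, at 12.5 ± 0.645 TPM. With the median length of coding transcripts Ikzf5, at 72.3 ± 4.98 TPM, also passed Ikzf3, at 68.5 ± 3.13 TPM, so that the place of Ikzf3 after Ikzf1 depended on the length too. For Ikzf4 the counted exons also lack 1572 bases of the 5150-base principal transcript of the later annotation, so fragments there were not counted.

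**Figure D2:**
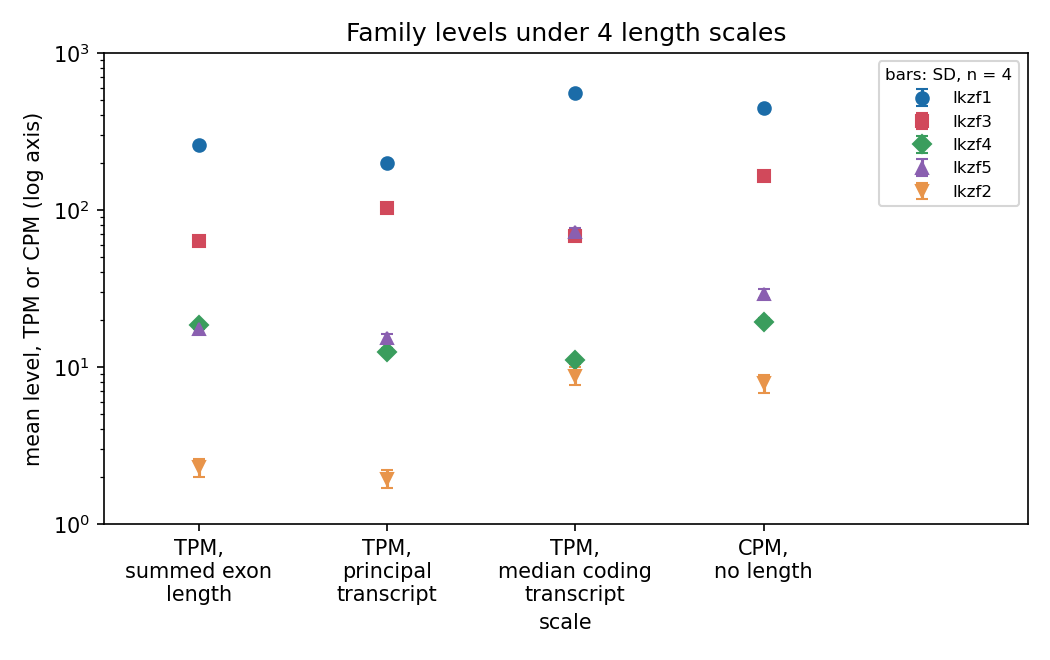
Mean level of each member (log axis; bars are the SD over 4 libraries) as TPM with the summed exon length, the counted bases of the principal transcript or the median coding transcript, and as CPM, which has no length term. Ikzf1 is highest and Ikzf2 lowest on all 4 scales, Ikzf5 lies above Ikzf4 on all but the first, and with the median coding transcript it also lies above Ikzf3 (72.3 against 68.5 TPM).

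Exons on the opposite strand were a further feature of Ikzf5. Of its 5721 counted bases, 4652 are shared with exons of Pstk, which encodes a kinase of selenocysteine synthesis and lies on the other strand at 4.75 ± 0.590 TPM. Counting was by strand per the file headers, so the genes are told apart as far as the libraries keep strand. No gene on the same strand shared an exon base with any member. The nearest coding neighbours differed widely in level. Rps26, a ribosomal protein gene 5668 bases from Ikzf4, stood at 1185 ± 41.6 TPM, while both neighbours of Ikzf2, Erbb4 and Spag16, had no fragment.

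No member passed the test for variation between replicates. In a fit over all genes, which asks whether a gene varies between the 4 libraries more than genes of its abundance, 36 of 11847 genes tested were called (edgeR quasi-likelihood, adjusted p under 0.05, one-sided), or 0.304%. Of the 5 members, all tested, 0 were called, 0 had an unadjusted p under 0.05 (5.69% of all genes did), and limma-trend also called 0. The adjusted p from edgeR was 0.999 for Ikzf1, 0.966 for Ikzf2, 0.928 for Ikzf3, 0.993 for Ikzf4 and 0.986 for Ikzf5. A p of this size does not show that the replicates were equal.

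Within these limits the members ranked differently. Ikzf1 had a coefficient of variation of 1.46%, where counting error alone gives 0.839%, and 94.9% of tested genes had a smaller unadjusted p. Ikzf3 varied by 4.62% against 1.38% from counting, and 6.96% of tested genes had a smaller p. For Ikzf4 the variation was 5.15% against 4.00% and for Ikzf5 6.86% against 3.26%.

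Ikzf2 varied most, by 13.2% against 6.35% from counting. In replicate 3 its 95% Poisson interval, which covers counting error only, was 1.60 to 2.11 TPM, below the intervals of the other libraries, whose lowest bound was 2.12 TPM. The unadjusted p from edgeR was 0.112, and 11.5% of tested genes had a smaller one. Replicate 3 was also the lowest library for 4 of the 5 Th17 markers and for 2 of the 5 regulatory T-cell markers, Foxp3 and Ctla4, while Il2ra, Lrrc32 and Nrp1 were lowest in replicate 4 and Nrp1 was highest in replicate 3. The share of all genes that were lowest in replicate 3 was not computed, so these marker counts have no background to be read against. Il17f stood at 703, 724, 589 and 759 TPM in replicates 1 to 4 and was among the 36 genes called (adjusted p 0.00785, edgeR). It was the only 1 of the 5 Th17 markers called. Foxp3, the regulator with which Helios is coexpressed in regulatory T cells, stood at 10.3, 11.8, 8.42 and 9.17 TPM (adjusted p 0.765, edgeR). The summed level of the 5 regulatory T-cell markers was 3128 TPM in replicate 3 and 3271 to 3338 TPM in the others, and 4 of the 5 reached 1 TPM in every library. Most of that sum came from Ctla4 at 2061 ± 85.2 and Il2ra at 1189 ± 11.5 TPM, which activated T cells also express, while Nrp1 was at 1.92 ± 0.151 and Lrrc32 at 0.858 ± 0.191 TPM. The part of these genes or of this library in the level of Ikzf2 was not tested.

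**Figure D3:**
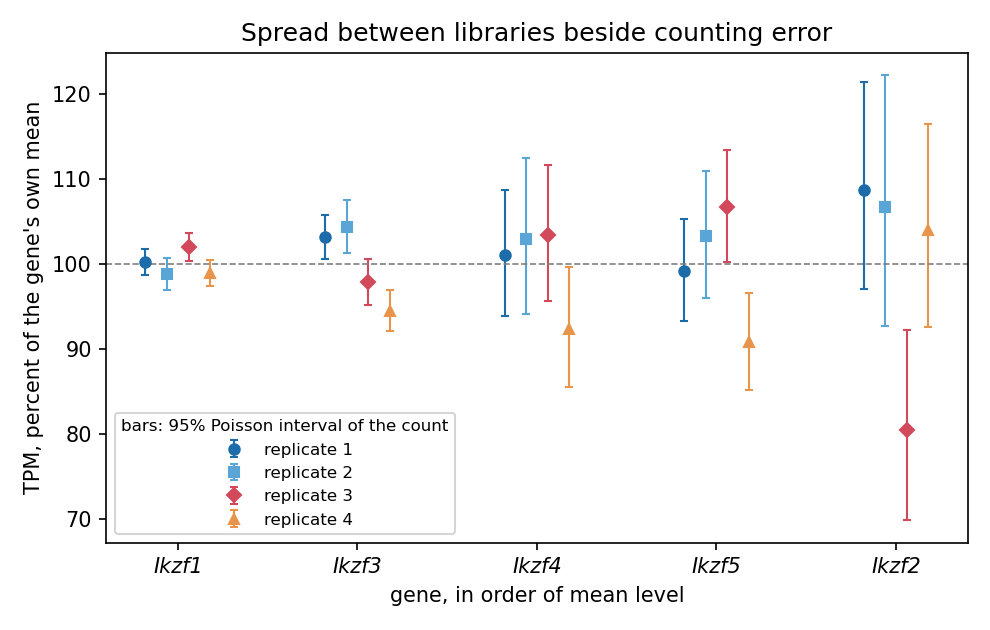
TPM of each member in each library as a percentage of the gene's own mean, with the 95% Poisson interval of the count. Ikzf1 stays within a few percent of its mean, and replicate 3 of Ikzf2 lies lowest, at 1.84 TPM against a mean of 2.29.

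Among 73 lymphoid transcription factors, the members were spread from the upper to the lower end. Ikzf1 ranked 10, Ikzf3 35, Ikzf4 54, Ikzf5 55 and Ikzf2 61. Likeness of level was measured against the other 72 as the root mean square difference of log2(TPM + 1) over the 4 libraries. Nearest to Ikzf1 was Stat5a, a signal transducer of interleukin-2, at 257 ± 5.64 TPM (difference 0.04). Ikzf3 lay nearest to the NF-kB subunit gene Rel (0.09) and to Runx1 (0.11), at 60.3 ± 1.92 and 65.7 ± 2.53 TPM. Ikzf4 and Ikzf5 were each other's nearest gene (0.08), followed for both by Bcl6, which directs follicular helper fate, at 19.97 ± 0.523 TPM (0.13 and 0.21). Ikzf2 lay nearest to Runx2 (0.14) and Klf3 (0.19), at 2.03 ± 0.264 and 2.26 ± 0.225 TPM. Likeness of level over 4 libraries of 1 cell type is a description of abundance alone. The ranks and distances also rest on the summed exon length, and other lengths were not tried for them. With the median coding transcript length Ikzf4 and Ikzf5 stood at 11.1 and 72.3 TPM, and in CPM at 19.5 and 29.4, so their nearness depends on the length.

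**Figure D4:**
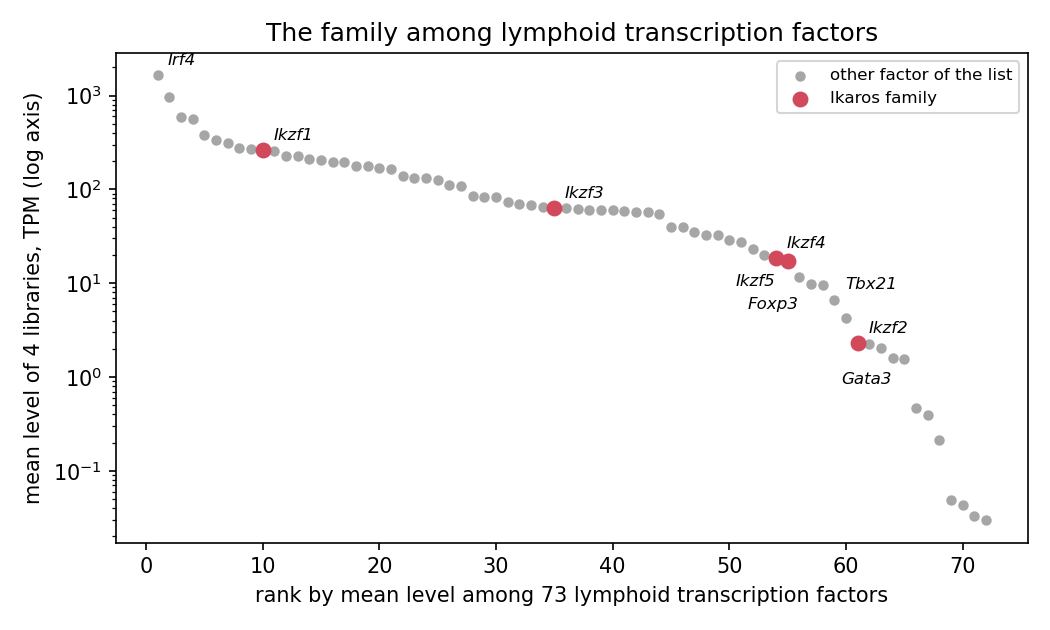
Mean level in TPM (log axis) of lymphoid transcription factors against their rank, with the 5 family members in red; Pax5, at rank 73 with no fragment, is not drawn. Ikzf1 lies near the upper end, at rank 10, and Ikzf2 lies at rank 61.

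Genes listed as partners or regulators of the family were for the most part well expressed. Of 37 genes in 5 lists of partners and regulators, 36 reached 1 TPM in every library, where 70.9% of protein-coding genes with a fragment did. The median of the mean levels of the 37 was 128 TPM. Over detected protein-coding genes, a set without those below 1 TPM, it was 31.2 TPM. Of the 36 tested, 0 varied between replicates in the edgeR fit at adjusted p under 0.05, 0 had an unadjusted p under 0.05, and limma-trend called 0. Over all genes tested these edgeR shares were 0.304% and 5.69%, so that a count of 0 called is near the background.

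All 14 NuRD genes reached 10 TPM in every library. The histone-binding subunit gene Rbbp7 led at 475.8 ± 15.5 TPM, followed by Chd4, the ATPase that Ikaros binds, at 401 ± 4.11 and the subunit gene Mta2 at 318 ± 6.08 TPM. The lowest was Mta3, at 22.6 ± 0.782 TPM. With the summed exon length, Chd4 was thus above Ikzf1 in every library, at 395 TPM or more against 266 TPM or less. Ikzf1 stood at 198 TPM with the principal transcript and 553 TPM with the median coding transcript length. Chd4 was not compared with it on those scales.

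Among 8 other corepressors and remodellers, 7 reached 1 TPM in every library. Smarca4, the BRG1 ATPase, stood at 177 ± 4.63 TPM, the corepressor gene Ctbp1 at 157 ± 4.04 and the remodeller subunit gene Smarcc1 at 142 ± 2.15 TPM. Ctbp2, the relative of Ctbp1, was the exception, at 0.118, 0.110, 0.216 and 0.265 TPM in replicates 1 to 4 from 44 fragments in all.

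The cereblon ubiquitin ligase was measured in all 5 of its genes. Its adaptor gene Ddb1 stood at 575 ± 14.3, the ring subunit gene Rbx1 at 128 ± 2.00 and the scaffold gene Cul4b at 92.2 ± 1.43 TPM. Crbn, the subunit that recognises the substrate, was the lowest of the list at 18.02 ± 0.610 TPM. With the summed exon length this was near the levels of Ikzf4 and Ikzf5. In the list of casein kinase 2, which phosphorylates Ikaros, and protein phosphatase 1, which removes the phosphate, all 6 genes reached 10 TPM. They ran from the phosphatase gene Ppp1ca at 1027 ± 31.2 TPM, with the kinase subunit gene Csnk2b at 257 ± 4.36 and Ppp1cc at 107 ± 1.69 TPM, down to Csnk2a2 at 49.4 ± 1.41 TPM.

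With the summed exon length, factors that act on transcription of the Aiolos gene in T cells were all above Ikzf3 in level. Stat3 and Ahr, which promote it in Th17 cells, stood at 226 ± 6.62 and 179 ± 8.002 TPM. Stat5a, given above, and Stat5b, at 196 ± 6.10 TPM, carry interleukin-2 signals. Each of the 4 exceeded 100 TPM in every library. Their levels under other lengths were not compared with that of Ikzf3.

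Genes that family members are known to regulate in lymphocytes were divided. The list includes genes of lymphocytes other than CD4 T cells, and the part of the family in their levels was not tested. Of 21, 10 reached 1 TPM in every library, where 70.9% of protein-coding genes with a fragment did, and 2, Rag2 and Igll1, had no fragment. The median of their mean levels, with these 2 included, was 0.723 TPM. Over all genes with a fragment, noncoding genes among them, it was 2.54 TPM, which is not a matched set. Il2, which Aiolos silences in Th17 cells, was the highest of the list, at 1723, 1491, 1546 and 1701 TPM in replicates 1 to 4. It was followed by Myc at 972 ± 13.4 and by Cd4, the T-helper coreceptor gene, at 237 ± 16.6 TPM. Every library thus held far more Il2 than Ikzf3 RNA per length, and with 1 condition this says nothing of a relation between them. The Rag2 and Igll1 floors of 3 fragments in the shallowest library were 0.120 and 0.189 TPM. Of the 11 target genes tested, 0 varied between replicates at adjusted p under 0.05 in the edgeR fit and 0 in limma-trend, while 5 had an unadjusted p under 0.05, namely Il2, Cd4, Foxp3, Il10 and Prdm1. Il10 stood at 7.17 ± 2.29 TPM, and Prdm1 at 0.471 ± 0.177 TPM, which was below 1 TPM in every library. The shares over all genes tested were 0.304% called and 5.69% at an unadjusted p under 0.05.

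Promoter sequences in the RefSeq table (GRCm38.p6, 250 bases before to 50 after a start) were matched for 2 members, Ikzf1 with 2 starts and Ikzf5 with 1. The Ikzf1 starts differed in base composition. The upstream window held 52 CpG pairs, more than 99.4% of the 32851 windows in the table, and the downstream window 2. The Ikzf5 window held 27. GGGAA, searched on both strands with overlaps allowed, occurred 0 times in the upstream Ikzf1 window, 2 times in the downstream one and 1 time in that of Ikzf5, and 62.7% of all windows held it. Gene counts do not show which Ikzf1 start was used.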

How the data were processed

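Counts were used as deposited. Per the file headers, the authors counted fragments per gene with featureCounts 1.4.6-p4 over GENCODE M13 exons, reverse-stranded and for read pairs with both ends mapped. The build was mm10 per the labels, and for the aligner a version was not given in the sources used here. Total RNA-seq is the stated assay, but the library protocol in the labels is named for polyadenylated RNA. TPM was computed from the counts over the summed exon length of each gene. Differences between neighbouring members were taken on log2(TPM + 1) with an exact sign-flip test. Variability was fitted over all genes with edgeR 4.0.16 (TMM scaling, filterByExpr, intercept only, robust prior). It was taken as the residual dispersion over its abundance trend, with Benjamini-Hochberg adjustment. The test was tried on simulated data whose spreads were not matched to those of the members. That trial does not give its power for them. Alternatives used limma 3.58.1 and DESeq2 1.42.0 size factors. Fingers were found by pattern in translations of the GENCODE M21 coding sequences. Genes named are the members, the 2 nearest lymphoid factors to each, the 3 highest and the lowest gene of each partner, regulator and target list, all Th17 and regulatory T-cell markers and the highest marker of each other cell type. Il10, Prdm1, Ms4a1, Pax5, Xist, Ddx3y and the genomic neighbours were named after their values were seen. A gene that this rule would name is not reported here. The members and lists were chosen with earlier results of these data known.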

Additional observations from a re-analysis of the deposited data

Results flagged for a closer look

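In 10 groups of 4 values, the levels and the family shares of the 5 members, both measures of Ikzf2 had 1 library far from the others. The level of Ikzf2 in replicate 3 was 1.84 TPM, against 2.38 to 2.49 TPM in the other libraries, a gap of 0.834 of the whole range, just past the 95% critical value of Dixon's test. Its share of the family sum in replicate 3 was 0.502%, against 0.674% to 0.683%, a gap of 0.946 of the range. Both rest on the same counts, and chance alone sets about 1 in 20 such groups apart.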

How the results depend on the processing

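Ikzf1 was highest and Ikzf2 lowest under every length and scaling tried. With the median coding transcript length, which short incomplete transcripts lower, the levels of Ikzf1 to Ikzf5 were 553, 8.79, 68.5, 11.1 and 72.3 TPM and their shares 77.5%, 1.23%, 9.59%, 1.55% and 10.1%. With the principal transcript length, an alternative chosen after seeing the data, the levels were 198, 1.95, 103, 12.5 and 15.2 TPM, and the shares of Ikzf1, Ikzf3 and Ikzf4 were 59.9%, 31.2% and 3.78%. Without mitochondrial and ribosomal RNA genes Ikzf1 stood at 267 TPM. The difference Ikzf4 minus Ikzf5 turned to -2.60 with the median length, -0.26 with the principal length and -0.57 in CPM. The count of variable genes was 36 in the reported fit, 94 without the expression filter, 17 without the robust prior, 39 with DESeq2 size factors and 40 with limma-trend. Leaving out 1 library gave 15 to 37, with 15 without replicate 4. No member was called in any of these fits, where the adjusted p ranged from 0.801 to 0.996 for Ikzf3 and from 0.907 to 0.999 for Ikzf2. The unadjusted p of Ikzf3 was 0.0495 without replicate 1, 0.0376 without replicate 3 and 0.0489 without the filter, and that of Ikzf2 was 0.961 without replicate 3. Of the members, Ikzf2 had the largest counting error, at 6.35%, while Ikzf4 had 4.00% beside a variation of 5.15%. Samples could not be paired between conditions because there was 1 group.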
